A study of Rattus norvegicus with 10 samples.

Results

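Parvalbumin (Pvalb), calbindin (Calb1) and calretinin (Calb2) are the 3 calcium-binding proteins by which hippocampal neurons are most often classified. Their rows were taken from the deposited read count table by gene symbol, which gave 3 of the 13670 symbols in the table. Messenger RNA had been sequenced from the left hippocampus of 10 female rats of the TgF344-AD line, all aged 11 months and perfused before dissection. The BT-11 group was 5 rats fed chow containing BT-11, a compound taken by mouth that binds the protein LANCL2, for 6 months from an age of 5 months. The untreated group was 5 rats of the same line on rodent chow. Both groups carry the transgenes of the line, which as background are driven by the mouse prion promoter, so the comparison is between treated and untreated transgenic females, and non-transgenic rats are not analysed here. The study's design text calls the animals male in 1 place and female elsewhere, and the sample labels say female. Each library is labelled as 1 rat, and p-values measure differences against the spread between these animals.

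As background, all 3 proteins belong to the EF-hand family, in which a loop between a pair of helices holds a calcium ion. They act mainly as mobile buffers that shape the size and duration of calcium signals in the neuron. In the rodent hippocampus, parvalbumin marks fast-spiking basket and axo-axonic interneurons, which inhibit the soma and axon initial segment of principal cells. Calbindin is abundant in dentate granule cells and in part of the CA1 pyramidal cells, and is also present in some interneurons. Calretinin marks interneurons that contact other interneurons, Cajal-Retzius cells, and granule cells soon after their birth, and outside the hippocampus it is found in parts of the thalamus. Loss of calbindin from granule cells has been described in mouse lines with amyloid pathology, which is background and not a result of these data.

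Each gene had 1 transcript row, and all its counts were whole numbers. Pvalb lies on the minus strand of chromosome 7, from 119429018 to 119441488 in rn6, with a row length of 538 bases. Calb1 lies on the plus strand of chromosome 5, from 29538380 to 29562775, with a row length of 1706 bases. Calb2 lies on the plus strand of chromosome 19, from 41482743 to 41509618, with a row length of 1438 bases. These spans cover exons and introns, and the table does not settle whether its starts count from 0 or from 1. No row of another gene in the table overlapped any of the 3 spans. All 3 symbols matched a gene in a RefSeq table of another assembly, which was used for names only.

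The libraries held 13721673 to 19700443 counts each, and 12000 genes passed the filter on low counts, all 3 members among them. Markers of the labelled tissue were present in every library: the general neuronal list, which includes Rbfox3, Snap25 and Slc17a7, had a mean level of 9.37 to 9.56 log2(CPM + 1) in BT-11 libraries and 9.15 to 9.44 in untreated libraries. CPM is the count of a gene divided by the scaled total of its library, per 1000000 counts. Transcripts of choroid plexus stood apart in BT-11 library 3 and untreated library 4, where the list had levels of 5.05 and 5.37 log2(CPM + 1), and results are also given without both. Of the 12000 genes, 0 had an adjusted p under 0.05 for BT-11 over untreated by the quasi-likelihood test of edgeR (0% called), 715 had an unadjusted p under 0.05 (5.96%), and DESeq2 called 8, none of them a member.

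Calretinin and parvalbumin transcripts were lower on average in BT-11 hippocampi, at 0.745 and 0.844 times the untreated level, and calbindin transcripts were at 1.01 times the untreated level. None of the 3 passed edgeR's test over all genes. Myelin transcripts were lower too. When their level entered as a covariate, the log2 fold change was -0.10 for Calb2 and -0.07 for Pvalb. Without it the values were -0.42 and -0.24. For Calb1 they were -0.22 with the covariate and 0.02 without. Myelin levels of the groups overlapped only through BT-11 library 3 and untreated library 4. The part of myelin content was therefore not tested apart from treatment. In these bulk samples, fewer cells of a type and less RNA per cell cannot be told apart. In an unadjusted exact permutation test of each gene alone, p was under 0.05 for Calb2 (0.0238) and Pvalb (0.0317) and not for Calb1 (0.921). Of all 12000 genes, 3.02% were lower with such a p under 0.05 and 5.28% lower or higher. By the unadjusted edgeR p, 2 of the 3 members were lower, against 3.42% of all genes lower and 2.53% higher. For 0 of the 3 members were the groups free of overlap, against 0.542% of all genes with BT-11 wholly lower and 0.3% with BT-11 wholly higher.

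**Figure D1:**
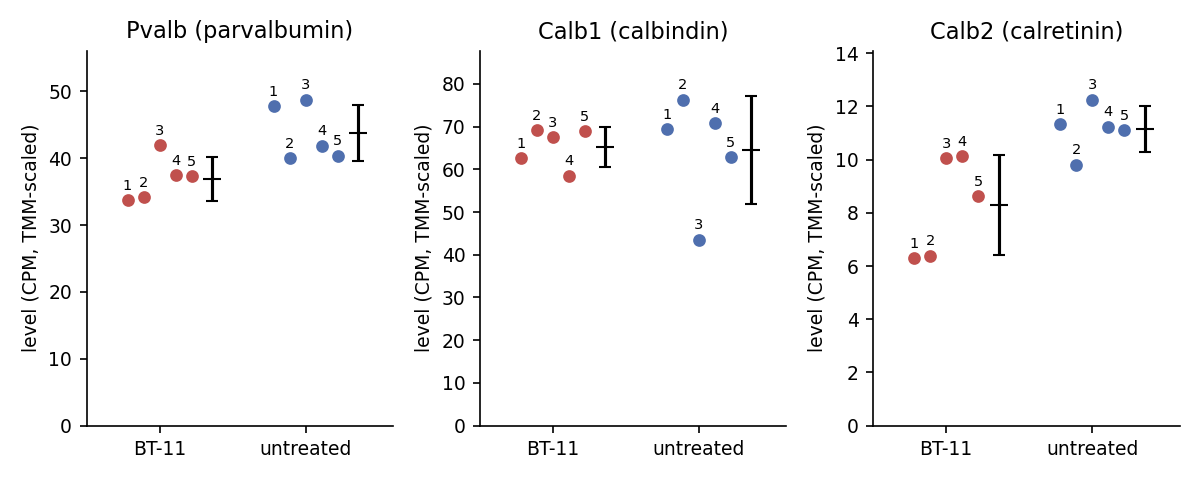
Levels of Pvalb, Calb1 and Calb2 in CPM (vertical axes, from 0) in the 5 BT-11 and the 5 untreated libraries. Each numbered point is 1 rat, and the bar beside each group gives the mean and SD. For Pvalb 4 of the 5 BT-11 points lie below all untreated points, for Calb2 3 of 5, and for Calb1 untreated library 3 lies below every other point at 43.5 CPM.

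Parvalbumin is the marker of fast-spiking inhibition. Its level was 33.7, 34.2, 41.9, 37.5 and 37.3 CPM in BT-11 libraries 1 to 5, against 47.7, 40.0, 48.7, 41.9 and 40.4 CPM in untreated libraries 1 to 5. BT-11 libraries 1 and 2 were the lowest, untreated libraries 1 and 3 the highest, and the groups overlapped through BT-11 library 3. Pvalb averaged 36.9 ± 3.29 CPM in BT-11 rats and 43.7 ± 4.19 CPM in untreated rats (SD, n = 5 each). The log2 fold change was -0.24 ± 0.0814 (SE), with a 95% interval of -0.42 to -0.07 (edgeR, unadjusted p = 0.0104, adjusted p = 0.8). The two-sided exact permutation test of log2(CPM + 1) gave p = 0.0317, where the smallest possible value is 0.00794. That p exceeded 0.05 without any one of BT-11 libraries 1, 2, 4 and 5 (0.0635 to 0.0714). Between 508 and 889 reads per library were counted, so counting error alone gives a coefficient of variation near 4.16% in the BT-11 group and 3.72% in the untreated group. The measured values were 8.92% and 9.57%.

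Calretinin was the least abundant of the 3 genes and the one with the largest difference. Calb2 stood at 6.30, 6.39, 10.0, 10.1 and 8.64 CPM in BT-11 libraries 1 to 5, against 11.3, 9.82, 12.3, 11.2 and 11.1 CPM in untreated libraries 1 to 5. BT-11 libraries 1 and 2 were again the lowest. BT-11 libraries 3 and 4 lay above untreated library 2, so the groups overlapped by that 1 untreated library. The means were 8.30 ± 1.88 CPM in BT-11 rats and 11.2 ± 0.872 CPM in untreated rats (SD, n = 5 each). The log2 fold change of Calb2 was -0.42 ± 0.145 (SE), with a 95% interval of -0.74 to -0.11 (edgeR, unadjusted p = 0.0122, adjusted p = 0.809). By the two-sided exact permutation test p was 0.0238, and it lay between 0.0159 and 0.0476 when any 1 library was left out. Without both choroid-plexus-rich libraries the difference was as large, at -0.47 on the log2(CPM + 1) scale against -0.41 with all libraries, and its exact permutation p was 0.0571.

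The spread of calretinin between rats was described beside its counting error. The coefficient of variation of Calb2 was 22.7% in BT-11 rats, where counting error gives 8.76%, and 7.82% in untreated rats, where counting error gives 7.36%. The BT-11 libraries lay at 6.30 and 6.39 CPM in 2 rats and at 8.64 to 10.1 CPM in the other 3. Whether the groups differ in spread was not tested.

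Calbindin, the buffer of granule and CA1 cells, showed no difference between the groups with a p under 0.05 in either test. Calb1 was at 62.5, 69.2, 67.4, 58.5 and 68.9 CPM in BT-11 libraries 1 to 5, against 69.4, 76.3, 43.5, 70.7 and 62.8 CPM in untreated libraries 1 to 5. Untreated library 3 was the lowest of all 10, and the other libraries of both groups overlapped. Calb1 averaged 65.3 ± 4.65 CPM in BT-11 rats and 64.5 ± 12.7 CPM in untreated rats (SD, n = 5 each). The log2 fold change was 0.02 ± 0.123 (SE), and its 95% interval of -0.25 to 0.28 corresponds to 0.841 to 1.22 times the untreated level (edgeR, adjusted p = 0.989; two-sided exact permutation p = 0.921). Without untreated library 3 the log2 fold change was -0.10. The coefficient of variation was 7.12% in BT-11 rats and 19.7% in untreated rats, where that library holds the low value.

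Levels of different genes can be set side by side only per length, and for this the counts were divided by row length and scaled to a sum of 1000000 in every library (TPM). In this unit the order was Pvalb, Calb1, Calb2 in all 10 libraries, and the ranges of the 3 genes did not overlap. Pvalb averaged 156.2 ± 15.9 TPM in BT-11 rats and 183.5 ± 14.4 TPM in untreated rats (SD, n = 5 each), which made it 1065th in mean level among the 12000 genes. Calb1 averaged 87.1 ± 6.49 TPM in BT-11 rats and 85.7 ± 17.9 TPM in untreated rats, and ranked 2241st. Calb2 averaged 13.2 ± 3.11 TPM in BT-11 rats and 17.5 ± 1.12 TPM in untreated rats, and ranked 7631st. Of the summed TPM of the 3 genes, Pvalb made up 58.5% to 62.8% in BT-11 libraries and 59.0% to 72.7% in untreated libraries, with the highest share in untreated library 3. Calb2 made up 4.10% to 6.35% in BT-11 libraries and 5.42% to 6.84% in untreated libraries. These shares rest on the row lengths of the table, and the parvalbumin row is short, so the gap between Pvalb and Calb1 is less certain than the gap of either to Calb2.

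Whether the genes differed from each other in their response was tested on ratios of counts within a library, which do not depend on library scaling. None of the 3 ratios passed. The Calb2 to Pvalb ratio was 0.187 to 0.270 in BT-11 libraries and 0.237 to 0.275 in untreated libraries, a log2 difference of -0.21 (two-sided exact permutation p = 0.111). Calb2 to Calb1 ratios were 0.0924 to 0.173 in BT-11 libraries and 0.129 to 0.282 in untreated libraries, a log2 difference of -0.49 (two-sided exact permutation p = 0.0794). Calb1 to Pvalb ratios were 1.56 to 2.02 in BT-11 libraries and 0.892 to 1.91 in untreated libraries, a log2 difference of 0.28 (two-sided exact permutation p = 0.175). In both ratios that involve Calb1, untreated library 3 held the extreme value, and without it the log2 differences were -0.32 and 0.11. So these data do not show that calretinin, parvalbumin and calbindin responded differently, although their single-gene results fell on different sides of 0.05.

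**Figure D2:**
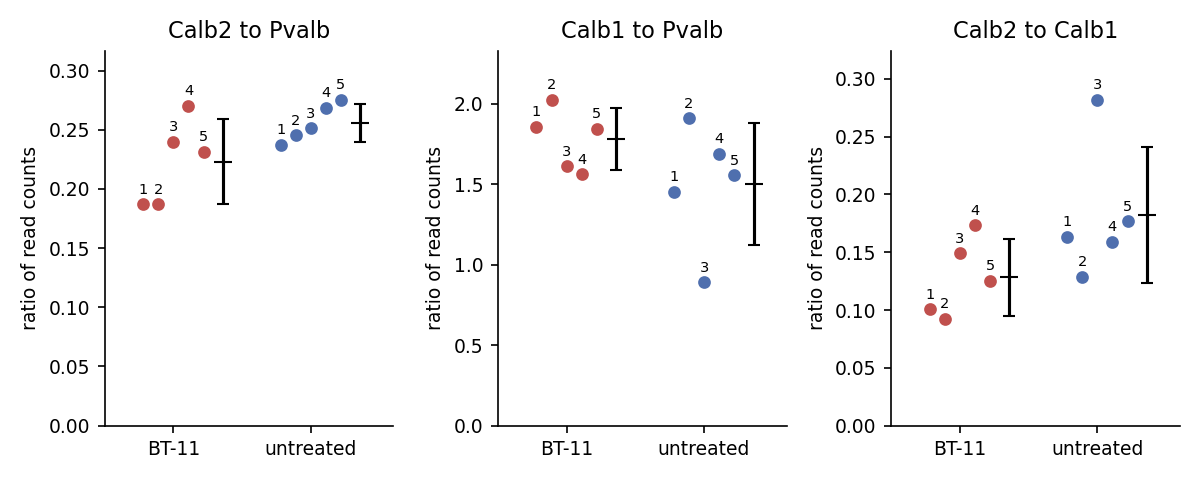
Ratios of read counts between members within each library (vertical axes, from 0), for 5 BT-11 and 5 untreated libraries. Numbered points are rats and bars give mean and SD. The groups overlap in all 3 panels, and untreated library 3 has the lowest Calb1 to Pvalb ratio, 0.892, and the highest Calb2 to Calb1 ratio, 0.282.

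Rats with more calretinin also had more parvalbumin than the others of their group. With each library taken as its deviation from its group mean, Pearson's r between Calb2 and Pvalb was 0.75 (exact permutation within groups, p = 0.000764, Benjamini-Hochberg adjusted over 3 pairs 0.00229, n = 10) and Spearman's rho was 0.87 (exact permutation p = 0.000833, adjusted 0.0025). Without the 2 libraries farthest from the median of Calb2, BT-11 libraries 1 and 2, r was 0.67. Such an r was not rare: 9.01% of the 9887 other genes with a mean of at least 5 CPM had an r of this size or higher with Pvalb, and 3.99% with Calb2. Calb1 varied apart from both, with r = -0.42 to Pvalb (exact permutation p = 0.288; rho -0.26, exact permutation p = 0.468) and r = -0.33 to Calb2 (exact permutation p = 0.138; rho -0.38, exact permutation p = 0.175), where r was -0.72 without BT-11 libraries 1 and 2. Without untreated library 3 the r of Calb1 with Pvalb was 0.04.

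The genes most like each member across the 10 libraries, by r of the same deviations, were ranked without a test. For Pvalb these were Macroh2a1, a variant histone, Nelfcd, a subunit of a factor that pauses RNA polymerase, Rnaseh2a, a subunit of ribonuclease H2, Adrm1, a ubiquitin receptor of the proteasome, and Cox6a1, a subunit of cytochrome oxidase, with r from 0.96 to 0.98. For Calb1 they were Pnma8a, Nmnat2, an enzyme of NAD synthesis in axons, Lonp2, a peroxisomal protease, Dnajc28 and Myo5b, an unconventional myosin, with r from 0.93 to 0.98. For Calb2 they were Slc25a1, the mitochondrial citrate carrier, Abtb1, Cluh, which binds mRNAs of mitochondrial proteins, Fam89a and Timp4, an inhibitor of metalloproteinases, with r from 0.94 to 0.96. None of these 15 genes is in the interneuron lists used here. The 8th gene for Calb1 is, Kcnc2, a potassium channel of fast-spiking cells (r = 0.92), which lies outside the 5 named for each member and was singled out after its value was seen. For the 15 genes, the log2 fold changes with BT-11 ranged from -0.17 to 0.27, and none passed edgeR's test.

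A measure of transcript length was set beside parvalbumin. It is the median deviation from the mean over libraries, in log2(CPM + 1), of the 989 genes with rows of at most 1092 bases minus that of the 989 genes with rows of at least 5022 bases. Pvalb, with a row of 538 bases, is itself 1 of the 989 short genes. Values of the measure were -0.11, -0.11, 0.13, -0.04 and -0.04 in BT-11 libraries 1 to 5. In untreated libraries 1 to 5 they were 0.20, -0.09, 0.22, -0.11 and -0.05. Short transcripts were thus highest, relative to long ones, in BT-11 library 3 and untreated libraries 1 and 3, and these held the highest Pvalb of their groups. The r with Pvalb was 0.95 (exact permutation p = 0.00229; rho 0.78, exact permutation p = 0.00854; n = 10) and 0.91 without untreated libraries 1 and 3, and it did not pass adjustment over the 51 relations between members, list levels and this measure (adjusted p = 0.117), of which 0 passed. For Calb2 it was 0.57 (exact permutation p = 0.0175, adjusted 0.146; rho 0.62, exact permutation p = 0.00951) and 0.73 without the same libraries. The difference between the groups in this measure was -0.07 (two-sided exact permutation p = 0.357). With the measure as a covariate, chosen after seeing the data, the log2 fold changes were -0.18 ± 0.0479 (SE) for Pvalb and -0.36 ± 0.133 (SE) for Calb2 (edgeR, adjusted p = 0.822 and 0.885).

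**Figure D3:**
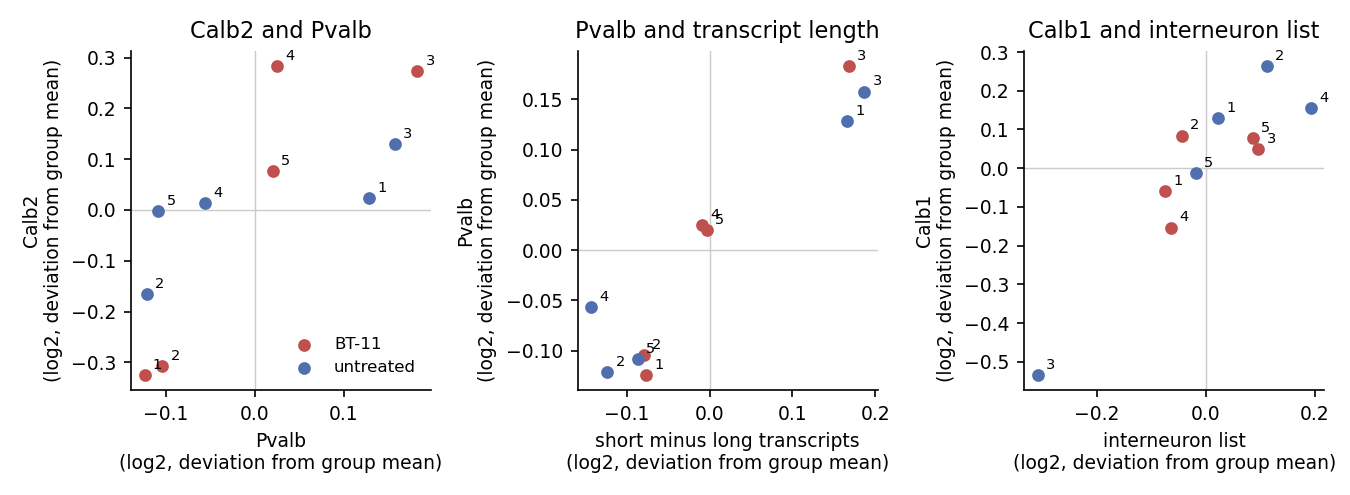
Deviations of the libraries from their group means, on log2 scales, for Calb2 against Pvalb (left), Pvalb against the short minus long transcript measure (middle) and Calb1 against the interneuron list (right). Points are rats, numbered within BT-11 and untreated groups. In the middle panel BT-11 library 3 and untreated libraries 1 and 3 lie at the upper right, and in the right panel untreated library 3 lies apart at the lower left.

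Interneuron genes other than the members lay mostly below the untreated level, by small amounts. Of 35 tested genes of the interneuron list, 26 were lower and 9 higher with BT-11, with a median log2 fold change of -0.09, against 6006 lower and 5994 higher and a median of -0.00 over all 12000 genes. None passed edgeR's test over all genes. With an unadjusted p under 0.05, 3 were lower: Cort, the cortistatin precursor, Tac1, the substance P precursor, and Sst, somatostatin of dendrite-targeting interneurons. Cort and Tac1 were low in count. Cort averaged 1.49 ± 0.323 CPM in BT-11 rats and 2.71 ± 0.753 CPM in untreated rats (SD). Tac1, which is also in the striatum list, averaged 2.82 ± 0.939 and 4.74 ± 1.89 CPM. Sst averaged 50.9 ± 10.4 CPM in BT-11 rats and 66.4 ± 14.9 CPM in untreated rats (SD, n = 5 each), a log2 fold change of -0.38 ± 0.162 (SE; edgeR, adjusted p = 0.809). Vip, the peptide of another interneuron class, stood at -0.33 ± 0.158 (SE) on the log2 scale. The genes of GABA synthesis and packaging had smaller values. Gad1 averaged 191.6 ± 19.1 CPM in BT-11 rats and 205.8 ± 42.1 CPM in untreated rats, and its log2 fold change was -0.10 ± 0.132 (SE). For Gad2 it was -0.02 ± 0.215 (SE) and for Slc32a1, the vesicular GABA transporter, -0.20 ± 0.111 (SE).

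Other genes of fast-spiking cells did not share the value of parvalbumin evenly. In a list of 17 tested genes, 13 were lower and 4 higher, with a median of -0.06, and 2 had an unadjusted p under 0.05, Syt2 and Tac1. Some of its genes, among them Tac1, Kcnc1 and Lhx6, are also in the interneuron list, so the counts of these lists are not independent. Between rats within groups, r of Pvalb was -0.40 with the level of this list (exact permutation p = 0.341; rho -0.07, exact permutation p = 0.87; n = 10) and -0.24 with the interneuron list (exact permutation p = 0.608; rho -0.02, exact permutation p = 0.973). Without the 2 libraries farthest on each list these were 0.30 and 0.44. Syt2, the fast calcium sensor of their terminals, averaged 9.50 ± 3.16 CPM in BT-11 rats and 16.3 ± 5.29 CPM in untreated rats (SD, n = 5 each), a log2 fold change of -0.77 ± 0.249 (SE; edgeR, adjusted p = 0.8). Kcnc1, a potassium channel for rapid firing, was at -0.09 ± 0.0618 (SE), Lhx6, a transcription factor of the lineage, at -0.06 ± 0.115 (SE) and Kcns3, a modifying potassium channel subunit, at -0.20 ± 0.110 (SE). Perineuronal nets, the matrix around these cells, were described by 11 tested genes, 5 lower and 6 higher, with a median of 0.02. Hapln1, a link protein of the nets, had the smallest p of that list and a log2 fold change of 0.27 ± 0.0967 (SE; edgeR, adjusted p = 0.809).

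Between rats, the level of calbindin was compared with the lists of the cells that hold it. Pearson's r of Calb1 with the level of the interneuron list was 0.90 (exact permutation p = 0.00931, adjusted over 51 relations 0.146, n = 10) and rho was 0.83 (exact permutation p = 0.00861, adjusted 0.121). Neither passed that adjustment. Without untreated libraries 3 and 4, the farthest on the list, r was 0.72. The fast-spiking list, which shares genes with the interneuron list, had r = 0.89 with Calb1 (exact permutation p = 0.0228, adjusted 0.146). Its rho was 0.55 (exact permutation p = 0.148), and r was 0.24 without untreated libraries 3 and 2. The r of Calb1 with the granule cell list was 0.18 (exact permutation p = 0.451; rho 0.16, exact permutation p = 0.59), and that with the CA1 list was -0.07 (exact permutation p = 0.831; rho 0.01, exact permutation p = 1). The differences between these correlations were not tested. Untreated library 3, with the lowest Calb1, also had the lowest interneuron list level of all 10 libraries, 4.44 against 4.59 to 4.94 log2(CPM + 1) in the others. Gad1 stood at 136.2 CPM and Gad2 at 28.8 CPM in that library, while Pvalb was at its highest value there. The same library had the highest myelin list level, 7.26, and the highest short minus long measure, and the part of these in its low Calb1 was not tested. Prox1, the defining factor of granule cells, was at 60.4 ± 18.2 CPM in BT-11 rats and 55.9 ± 14.3 CPM in untreated rats (SD, n = 5 each), and Wfs1, a CA1 marker, at 264.4 ± 104.3 and 334.0 ± 92.9 CPM. Of the granule cell list 8 of 12 genes were higher and 4 lower (median 0.10), and of the CA1 list 8 of 11 were lower and 3 higher (median -0.21).

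Lists of other cells that hold calretinin were set beside its level. Among 14 tested thalamus genes 9 were lower and 5 higher, with a median log2 fold change of -0.11, and 3 were lower with an unadjusted p under 0.05, among them Slc17a6, the glutamate transporter of subcortical neurons, and Ramp3. Slc17a6 ranged over 9.95 to 23.4 CPM with BT-11, against 15.7 to 29.5 CPM without treatment. Tcf7l2, a transcription factor of thalamic neurons, ranged over 7.10 to 9.91 CPM with BT-11, against 7.74 to 11.8 CPM without treatment. The list level was 3.18 to 3.52 log2(CPM + 1) in BT-11 libraries, lowest in library 5, and 3.35 to 3.64 in untreated libraries. Its r with Calb2 was 0.21 (exact permutation p = 0.606; rho 0.10, exact permutation p = 0.817; n = 10), and 0.63 without the 2 libraries farthest on the list. With that level as a covariate the log2 fold change of Calb2 was -0.38 ± 0.168 (SE; edgeR, adjusted p = 0.999). Of 5 tested Cajal-Retzius genes 3 were lower and 2 higher (median -0.21), with list levels of 2.90 to 3.44 in BT-11 libraries and 2.85 to 3.49 in untreated libraries. Of 9 tested genes of new neurons 7 were higher and 2 lower (median 0.11). Dcx, doublecortin of young neurons, had a log2 fold change of 0.16 ± 0.156 (SE). Calb2 had r = 0.26 with the Cajal-Retzius list and -0.02 with the new neuron list (exact permutation p = 0.538 and 0.927). With the interneuron list r was -0.00 (exact permutation p = 0.992). Without the 2 libraries farthest on each list these were -0.10, 0.32 and 0.34.

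**Figure D4:**
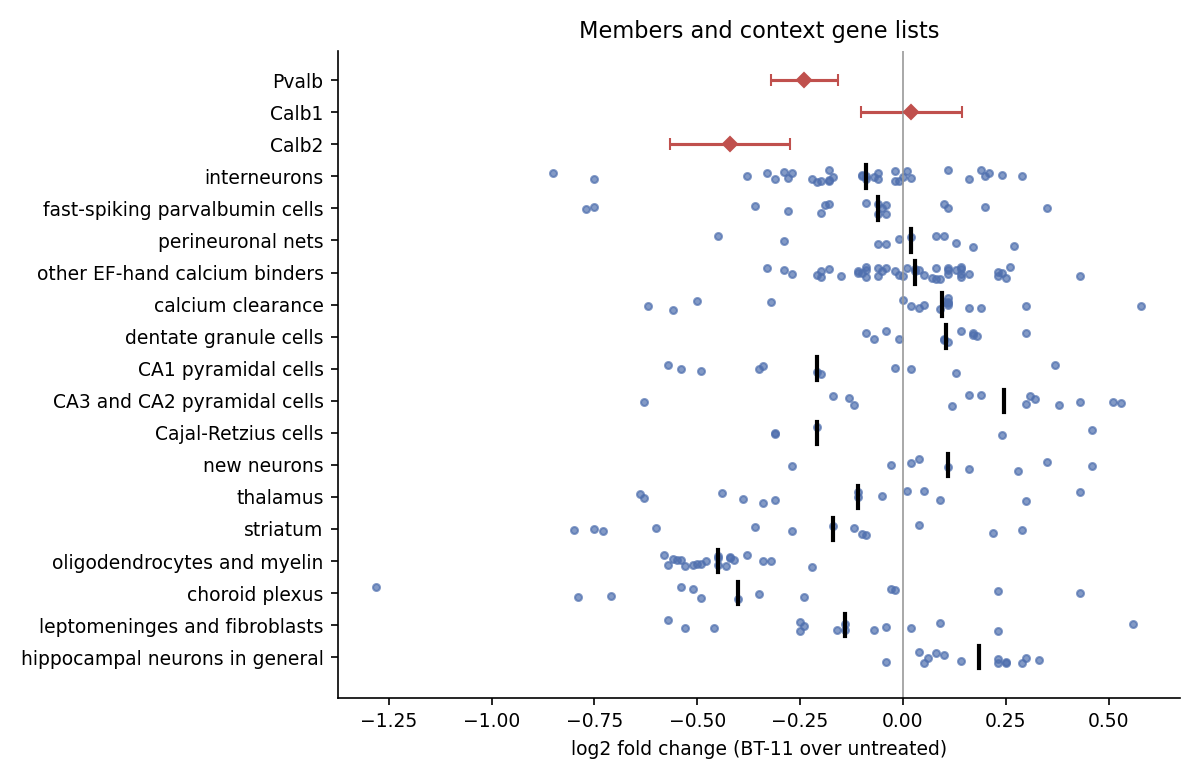
Log2 fold changes of BT-11 over untreated (horizontal axis) for the 3 members with their SE (diamonds) and for the tested genes of 16 context lists (points, spread vertically for visibility, with black bars at the list medians). All 21 myelin genes lie left of 0, and Pvalb and Calb2 lie left of 0 while Calb1 lies at 0.02.

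The largest common shift among the lists was that of myelin genes, and it went in the direction of Pvalb and Calb2. All 21 tested genes of the oligodendrocyte list were lower with BT-11, 17 with an unadjusted p under 0.05 and 0 past edgeR's test, with a median log2 fold change of -0.45. Its level was 6.13 to 6.72 log2(CPM + 1) in BT-11 libraries and 6.65 to 7.26 in untreated libraries. It was lowest in BT-11 libraries 1 and 2 and highest in untreated library 3, the same libraries that held the lowest and the highest values of Pvalb and Calb2. Within groups, r with the myelin level was 0.72 for Pvalb (exact permutation p = 0.0229; rho 0.67, exact permutation p = 0.0572) and 0.78 for Calb2 (exact permutation p = 0.0165; rho 0.83, exact permutation p = 0.0197), with n = 10, and neither passed adjustment over the 51 relations (0.146 for both r). Without untreated library 3 and BT-11 library 2, the farthest in myelin level, r was 0.53 for Pvalb and 0.77 for Calb2. Relations of like size were found with other lists and did not pass either. With the granule cell list r was -0.71 for Pvalb (exact permutation p = 0.0187; rho -0.83, exact permutation p = 0.00653) and -0.78 for Calb2 (exact permutation p = 0.0779; rho -0.75, exact permutation p = 0.074), with adjusted p of 0.146 and 0.333 for r. Leaving out BT-11 libraries 1 and 5 gave -0.85 and -0.89. With the calcium clearance list r was -0.82 for Pvalb (exact permutation p = 0.00521, adjusted 0.133; rho -0.78, exact permutation p = 0.0125), and -0.73 without untreated library 3 and BT-11 library 3. When myelin level entered as a covariate, the log2 fold change was -0.07 ± 0.0923 (SE) for Pvalb, -0.10 ± 0.155 (SE) for Calb2 and -0.22 ± 0.146 (SE) for Calb1 (edgeR, adjusted p = 0.91, 0.927 and 0.848). The myelin levels of the groups overlapped only through BT-11 library 3 and untreated library 4, and the part of myelin content in the lower Pvalb and Calb2 was not tested apart from treatment. Lists of other cells and regions, none with a gene past the test, had medians of 0.19 for neurons in general (13 of 14 higher), 0.25 for CA3 and CA2 (10 of 14 higher), -0.17 for striatum (10 of 13 lower), -0.14 for leptomeninges (11 of 15 lower) and -0.40 for choroid plexus (11 of 13 lower).

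The other EF-hand genes had no common direction. Genes of calcium pumps, exchangers and stores were more often higher than lower in sign, without a higher mean level. Of 45 other EF-hand proteins tested, 21 were lower and 24 higher with BT-11, the log2 fold changes ran between -0.33 and 0.43 around a median of 0.03, and 0 passed. Kcnip1, an EF-hand subunit of potassium channels that interneurons express, had the smallest p of this list, at 11.2 ± 0.776 CPM in BT-11 rats and 14.0 ± 2.05 CPM in untreated rats (SD, n = 5 each), a log2 fold change of -0.33 ± 0.110 (SE; edgeR, adjusted p = 0.8). Calm2 and Calm3, which encode the calcium sensor calmodulin, stood at 0.08 ± 0.0661 (SE) for Calm2 and 0.05 ± 0.0660 (SE) for Calm3 in log2 fold change. Hpca, hippocalcin of pyramidal and granule cells, was at 0.24 ± 0.187 (SE), and S100b, the glial EF-hand protein, at -0.05 ± 0.092 (SE). Scgn, secretagogin, a close relative of calbindin and calretinin, did not pass the filter on low counts. Of 18 genes of calcium pumps, exchangers and stores, 5 were lower and 13 higher (median 0.10). Slc8a3, a sodium-calcium exchanger, had the smallest p of these and a log2 fold change of -0.62 ± 0.205 (SE; edgeR, adjusted p = 0.8).

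**Figure D5:**
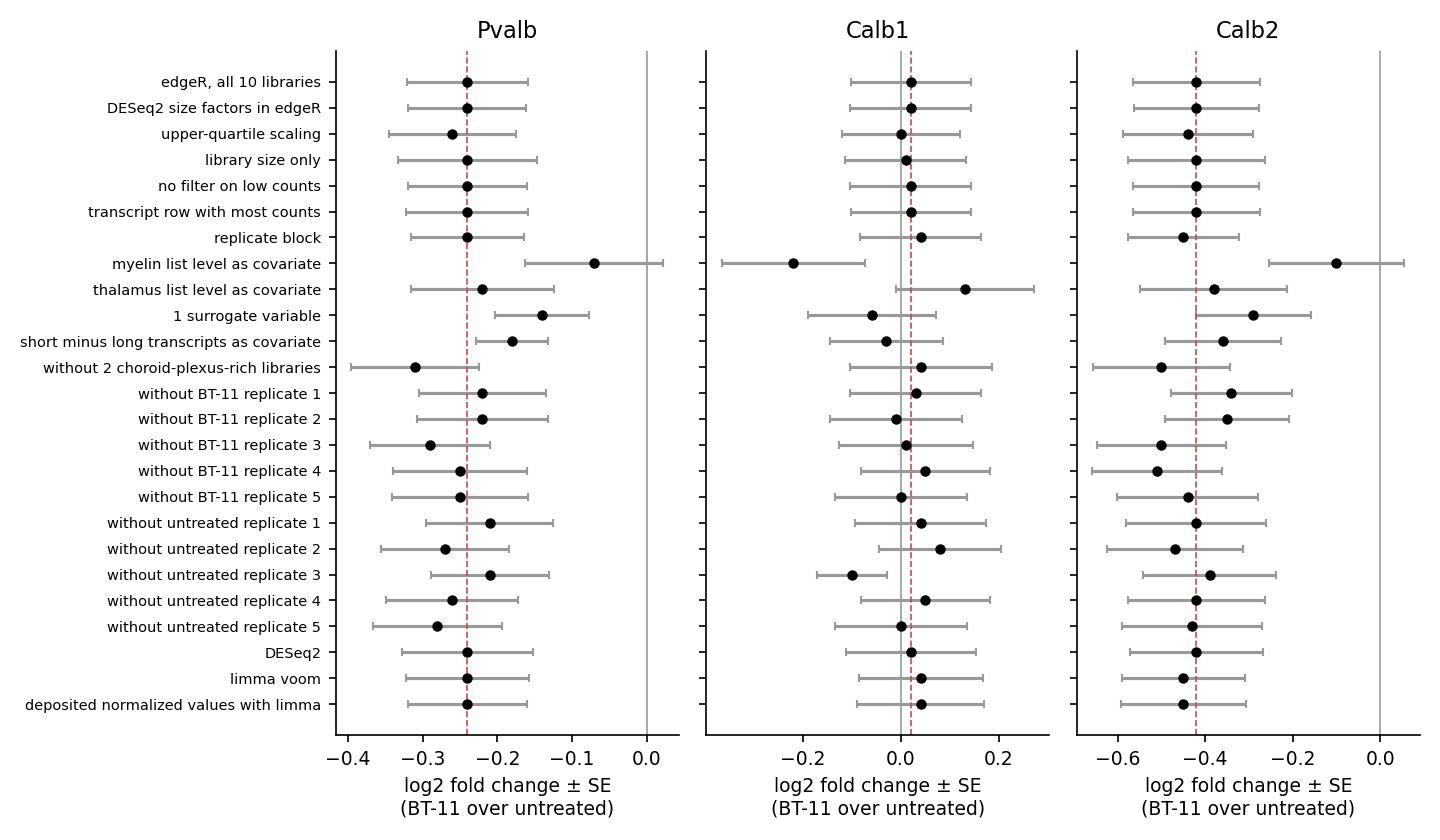
Log2 fold change of BT-11 over untreated (horizontal axes) with SE bars for Pvalb, Calb1 and Calb2 under the main edgeR test and each alternative, named at the left. Pvalb and Calb2 stay below 0 in all settings shown and come nearest to 0 when myelin level is the covariate (-0.07 and -0.10), and Calb1 lies on both sides of 0.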

How the data were processed

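The submitters' processing notes list STAR 2.7.9a, bcl2fastq 2.19.1.403, DESeq2 and Partek, and the build rn6. What each did, which program counted reads, with which annotation and whether by strand: not given in the sources used here. Libraries were strand-specific and paired-end, per the labels' protocols. The authors deposited estimated counts (expected counts) for 14806 transcript rows, 85.4% whole within 1e-06, with row lengths in bases, and a second table with a normalized signal, in which each library's counts are multiplied by 1 factor. Such a factor corrects depth, not RNA quality, tissue makeup or length effects.

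Rows were summed by symbol (785 of 13670 symbols had several) and rounded. filterByExpr of edgeR 4.0.16 kept 12000 genes, libraries were scaled by TMM, and BT-11 over untreated was tested with the quasi-likelihood test, no covariate, two-sided, Benjamini-Hochberg adjustment over all genes and a threshold of 0.05. Single values were compared by exact permutation of the 252 assignments and are not adjusted over the members, and correlations by 14400 pairings within groups. The levels of 16 lists are means of log2(CPM + 1), with 286 of 313 entries found. Some genes, such as Tac1 and Prox1, are in several lists. The coefficients of variation given for counting error cover that error only. Named genes were the members, fixed marker genes, up to 4 genes of smallest p in each list described, and 5 genes most like each member at 5 CPM or more. A gene that the rule names but that is withheld is not reported here. Members, lists and tests were chosen with earlier results of these data known. Alternatives used DESeq2 1.42.0, limma 3.58.1 and sva 3.50.0 in R 4.3.3, and Python 3.11.15 and matplotlib 3.10.9 were used otherwise.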

Additional observations from a re-analysis of the deposited data

Results flagged for a closer look

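Chance marks about 1 in 20 groups of this size, and 46 groups were looked at, of the members, their ratios, the list levels and the transcript length measure. In 2 of them a library stood apart from the others of its group. The choroid plexus list had a level of 5.05 log2(CPM + 1) in BT-11 library 3, against 1.36 to 2.12 in the other BT-11 libraries. It had a level of 5.37 log2(CPM + 1) in untreated library 4, against 2.04 to 2.62 in the other untreated libraries. No library was marked for Pvalb, Calb1 or Calb2 or for a ratio between them. Without both libraries the log2 fold changes were -0.31 for Pvalb, 0.04 for Calb1 and -0.50 for Calb2.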

How the results depend on the processing

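The count of genes called and the members' fold changes, level differences, ratios and correlations with each other were recomputed under alternatives. Of these 219 values, 199 kept their direction, or the count of genes, and their side of 0.05. A change of size alone was not marked. For fold changes the adjusted p was used, 0.8 or more in the main test, which left little room to cross 0.05. The Pvalb level difference rose above 0.05 in 5 settings and kept its side in 11. List counts, list correlations and the transcript length difference were not recomputed, apart from correlations without 2 libraries. The number of genes called by edgeR was 0 throughout, 0 by limma, and 8 by DESeq2. For Calb1 the log2 fold change changed sign with the myelin level (-0.22), 1 surrogate variable (-0.06) and the transcript length measure (-0.03) as a covariate. With 1 surrogate variable the log2 fold changes were -0.14 for Pvalb and -0.29 for Calb2. When 1 library was left out, the log2 fold change of Calb1 ranged from -0.10 to 0.08 and its level difference from -0.09 to 0.10, the level difference of Pvalb from -0.28 to -0.20, and the log2 differences of the ratios from -0.28 to -0.15 for Calb2 to Pvalb, from 0.11 to 0.38 for Calb1 to Pvalb and from -0.61 to -0.32 for Calb2 to Calb1. Below 0.05 were then the exact permutation p of Calb2 to Pvalb without BT-11 library 4 (0.0159), of Calb1 to Pvalb without untreated library 2 (0.0476), and of Calb2 to Calb1 without either (0.0397 and 0.0476). The r of Calb1 with Pvalb ranged from -0.57 to 0.04, the last without untreated library 3. The causes were not tested. Without both choroid-plexus-rich libraries the level difference of Calb2 was -0.47 (exact permutation p = 0.0571, where 0.0286 is the smallest possible). Replicate numbers are shared between the groups and were taken as names only. Same-numbered libraries had correlations of deviations from -0.353 to 0.121. These cannot decide whether the samples were paired, because libraries with different numbers were not compared. With the replicate block, edgeR called 0 genes, the level differences were -0.24 for Pvalb and -0.41 for Calb2, and both had p = 0.0625, the smallest an exact sign-flip test of 5 pairs can give. At 95 to 217 reads per library, Calb2 is the member most limited by depth.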
